A study of Mus musculus with 26 samples.

Results

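Septins are GTP-binding proteins that join into filaments, and in the sperm tail they form the annulus, a ring between the midpiece and the principal piece. The genes described here are 7 septin genes (*Septin2*, *Septin4*, *Septin6*, *Septin7*, *Septin9*, *Septin12* and *Septin14*) and *Slc26a8*, which encodes an anion transporter of the annulus. They were taken by gene name from the table of normalized read counts, where the 8 names correspond to 9 of 51124 genes, because 2 Ensembl genes are named *Septin2*. All 9 passed the filter on low values and are among the 23782 genes tested. Total RNA of whole testes from adult mice was sequenced after removal of ribosomal RNA. There were 2 libraries from wild-type mice (N1 and N2), 2 from *10xPerf* mice (N3 and N4) and 2 from *10xBulge* mice (N5 and N6). The library titles do not say whether the 2 libraries of a genotype come from different mice. In both knock-in lines, made with CRISPR/Cas9 on the B6D2F1/J hybrid background, sites for the pachytene piRNA piR-A were placed in the untranslated 3′ end of *Ythdc2*. The sites pair fully with piR-A in *10xPerf* and carry mismatches at the cleavage position in *10xBulge*. Wild-type mice carry no insertion, and the labels of these libraries give neither zygosity nor exact age. Libraries of a genotype come from 1 knock-in line each.

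Septin filaments are built from subunits of different subgroups that occupy set positions, so members of a subgroup can replace each other. SEPT1, SEPT2, SEPT4 and SEPT5 belong to the SEPT2 subgroup, SEPT6, SEPT8, SEPT10, SEPT11 and SEPT14 to the SEPT6 subgroup, SEPT3, SEPT9 and SEPT12 to the SEPT3 subgroup, and SEPT7 stands alone. SEPT4 and SEPT12 are known for their need in the annulus of mouse and human sperm. SLC26A8 sits at the same ring, and male mice without it are infertile with poorly motile sperm.

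The most frequent normalized count below 3 in a library was taken as 1 read. On this inferred scale the libraries held roughly 41.1 to 61.6 M reads assigned to genes. On the same scale, 3 reads correspond to between 2.73 and 3.63 normalized counts. The labelled tissue was checked with lists of marker genes, none of which was at 0 in any library. The 12 spermatid markers, including protamines and sperm tail genes, summed to between 654820 and 920433 normalized counts in wild type, 745345 to 867234 in *10xPerf* and 1940 to 3466 in *10xBulge*, where all 12 were called lower. The 10 spermatocyte markers summed to 22890 to 43946, 36074 to 52504 and 18757 to 36413 (1 called lower and 1 higher in *10xBulge* against wild type). The 8 spermatogonial markers summed to 7624 to 10117, 4643 to 7748 and 13610 to 17394 (1 called lower and 1 higher in *10xBulge* against wild type). The 10 Sertoli cell markers summed to 86156 to 87297, 60015 to 85235 and 135842 to 283600 (6 called higher), and the 8 Leydig cell markers to 54612 to 77479, 46943 to 83129 and 150962 to 319236 (6 called higher). Of 6 macrophage markers 5 were called higher, and of 8 peritubular and vessel markers 0. N5 had the highest Sertoli and Leydig sums. In bulk tissue, fewer cells of a type and less RNA per cell cannot be told apart. The same holds for a larger share of a cell type and more RNA per cell. Over 12426 protein-coding genes, GC content correlated with the N1 to N2 ratio (rho 0.615, Spearman), with the N5 to N6 ratio (0.518) and less with the N3 to N4 ratio (-0.242). These genes share libraries and are not independent replicates.

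The sequences before the start sites show how differently these genes begin. RefSeq windows on GRCm38.p6 from 250 bases before to 50 bases after the start were found for 7 of the 8 names, with 16 start sites in all. *Septin6* was not matched. The 30 bases just before the start are shown for the annulus genes *Septin4*, *Septin12* and *Slc26a8* and for *Septin14*. They are given on the strand of the gene and with each CG in capitals.
Septin4, first start, chr11:87566659-87566688, forward strand: agacagagattgtaaagaggactgtgagac
Septin4, second start, chr11:87578359-87578388, forward strand: cagaggtacaggcccCGccccaggccCGac
Septin12, first start, chr16:4997853-4997882, reverse strand: ccttagcccctcctgcctgaggggggggtc
Septin14, chr5:129704985-129705014, reverse strand: ctattaatttggtccaCGtccacagatagc
Slc26a8, chr17:28689988-28690017, reverse strand: aatggggaaagttagaccCGtaagaaccca
Over the full 300 bases, the *Septin12* windows held 1 and 2 CG dinucleotides, *Septin14* 6 and *Slc26a8* 8, against a median of 7 over 32851 promoter windows of this length. The 4 *Septin4* starts held 1, 11, 13 and 5. *Septin2* and *Septin7*, which are expressed in many tissues, held 29 and 36, and 14 and 43. The 4 *Septin9* starts held 31, 18, 5 and 15.

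The letters TGACG, the core of the element bound by CREB and CREM, were searched on both strands. They occur in 20.8% of all windows. They were found in both windows of *Septin2* and both of *Septin7*, and in no window of *Septin4*, *Septin9*, *Septin12*, *Septin14* or *Slc26a8*. The stretches of 30 bases that hold the match nearest to a start are shown here with the match in capitals (CGTCA is TGACG on the other strand).
Septin2, chr1:93478974-93479003, forward strand: gggacggcgcgaTGACGccatctgttcgcg
Septin7, chr9:25251952-25251981, forward strand: ttctttcaaagaCGTCAggtccacggccca
The letters GTTGCC, part of the X-box bound by RFX factors, occur in 12.5% of windows and were found in 2 overlapping windows of *Septin4*. TATAAA occurs in 13.6% of windows and was found in none of the 16. A match of letters is a description and not a binding site.

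In wild-type testes, levels were compared between genes per kilobase of the longest GENCODE transcript. *Septin12* had the highest level per kilobase, at 2919 ± 486 normalized counts (SD, n = 2). It was followed by *Slc26a8* at 2171 ± 165, *Septin4* at 2007 ± 7.90 and the main *Septin2* gene (ENSMUSG00000116048) at 1751 ± 1063. *Septin9* had 889 ± 51.97 per kilobase, *Septin6* 414 ± 161, *Septin14* 407 ± 250 and *Septin7* 406 ± 154, and the second *Septin2* gene (ENSMUSG00000026276) had 200 ± 4.95. From *Slc26a8* to *Septin9*, each pair of neighbours in this order differed by less than the larger SD of the pair, and so did the pairs from *Septin6* to *Septin7*. *Septin12* and *Slc26a8*, *Septin9* and *Septin6*, and *Septin7* and the second *Septin2* gene differed by more. In *10xPerf* the order began with *Septin12* at 2967 ± 126, *Septin4* at 2400 ± 447, the main *Septin2* gene at 2387 ± 35.2 and *Slc26a8* at 2298 ± 35.5 per kilobase (SD, n = 2). In *10xBulge* the order was led by the main *Septin2* gene (2279 ± 494), *Septin9* (1808 ± 1227), *Slc26a8* (1639 ± 708) and *Septin12* (1369 ± 738), and *Septin4* was last at 61.6 ± 14.0. Of the neighbours in the *10xBulge* order, the pair at the end, the second *Septin2* gene (294 ± 125) and *Septin4*, was the one whose means differed by more than the larger SD.

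*Septin4* had the largest difference between genotypes among these genes, and it was lower in *10xBulge*. Wild-type libraries held 4298 and 4275 normalized counts, *10xPerf* libraries 5801 and 4453, and *10xBulge* libraries 153 and 111. Both *10xBulge* libraries lay far below the other 4. Wild type averaged 4286 ± 16.9 and *10xBulge* 132 ± 29.8 (SD, n = 2), 32.7-fold lower (log2 fold change -5.03, 95% confidence interval -5.91 to -4.15, limma adjusted p = 1.82e-05). Of all genes tested, 5.90% had a lower log2 fold change in this comparison. The call was kept in each alternative run, with log2 fold changes from -5.26 to -4.51. *Septin4* fell together with the spermatid markers, and their part in the difference was not tested. On GRCm38 the GENCODE gene lies on chromosome 11 from 87568903 to 87590539. The window of the first RefSeq start shown above lies before this span, so the 2 annotations differ there.

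*Septin12*, the other septin gene known for its need in the annulus, fell as well but by much less. Wild-type libraries held 8404 and 6634 normalized counts, *10xPerf* libraries 7414 and 7872, N5 4870 and N6 2181. The *10xBulge* libraries were below all others but differed from each other by more than the wild-type pair did. Wild type averaged 7519 ± 1252 and *10xBulge* 3526 ± 1902 (SD, n = 2), 2.29-fold lower (log2 fold change -1.20, 95% confidence interval -2.24 to -0.15, limma adjusted p = 0.0906). This call is close to the threshold of 0.1. Without N6 the log2 fold change was -0.62 (limma adjusted p = 0.346) and without N5 it was -1.78 (0.0161). The call was also lost without N1 (0.301), without N2 (0.153), without N3 (0.163) and without N4 (0.167), after scaling to equal library totals (0.129), with no filter on low values (0.123), with a pseudocount of 0.1 (0.101), and when the fit held only the genotypes compared (0.157) or had no mean-variance trend (0.131). With the GC trend of each library removed, the log2 fold change was -0.57 (0.213). This form also moved the median of all genes from -0.026 to 0.58. A second form that keeps each library's mean gave -1.17 (limma adjusted p = 0.0349), and the call was kept. Of all genes tested, 25.3% had a lower log2 fold change. Within each library, the log2 ratio of *Septin4* to *Septin12* was between -0.97 and -0.35 in wild type and *10xPerf*, and -4.99 in N5 and -4.29 in N6.

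*Slc26a8*, the transporter gene, was not called. Wild-type libraries held 7538 and 8394 normalized counts, *10xPerf* libraries 8340 and 8524, N5 7850 and N6 4178. N5 lay between the wild-type libraries and N6 below both. The log2 fold change in *10xBulge* against wild type was -0.47 (95% confidence interval -1.44 to 0.50, limma adjusted p = 0.453), and without N6 it was -0.019.

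**Figure D1:**
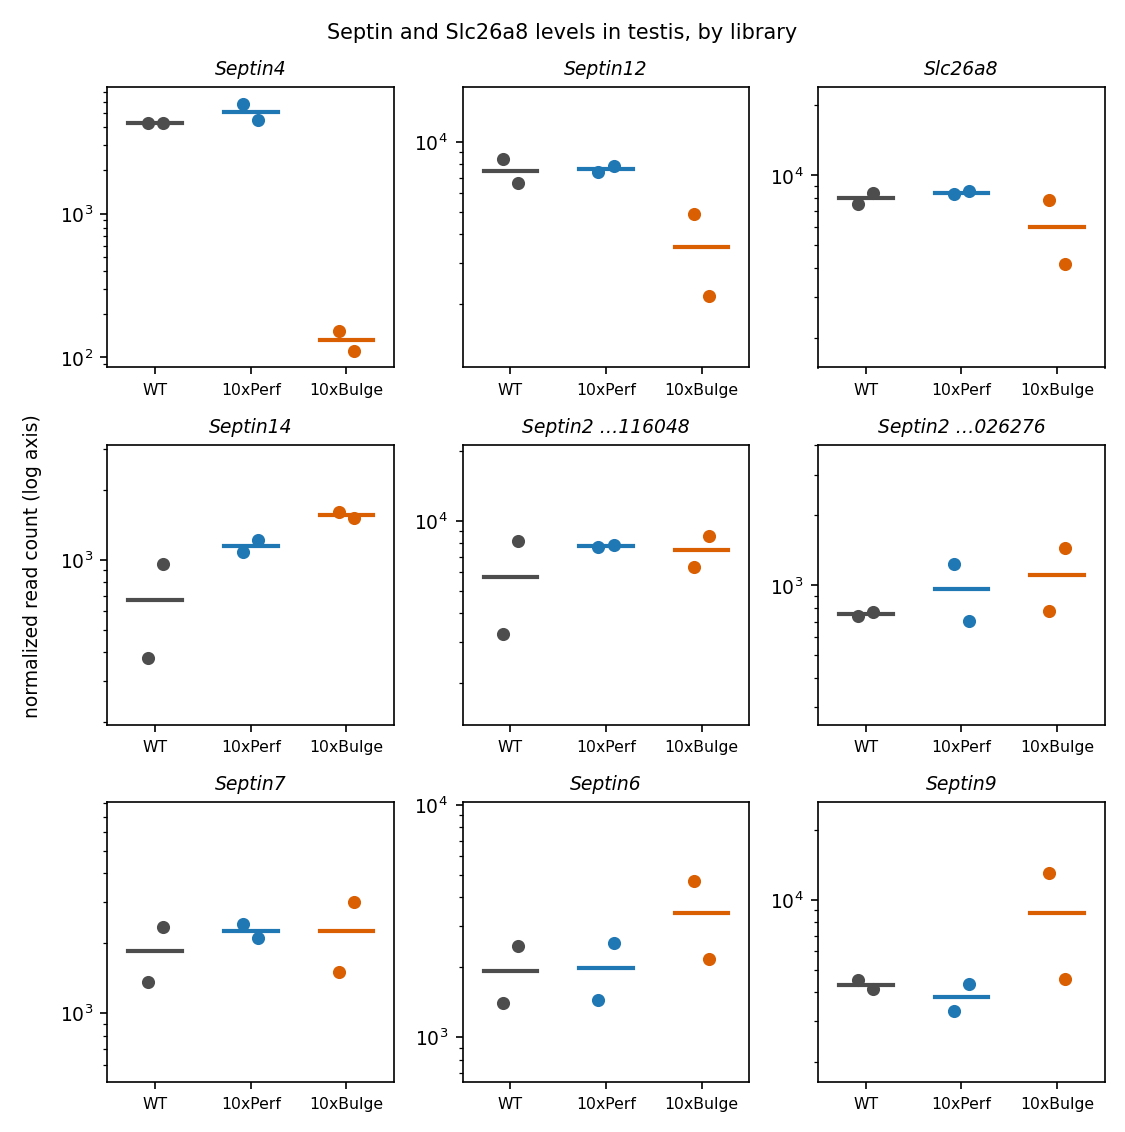
Normalized read counts (log axis) of the 8 genes, with *Septin2* as 2 Ensembl genes, in each of the 6 libraries. Points are libraries, ordered by number within a genotype, and lines are means of 2 libraries. *Septin4* stands at 153 and 111 in *10xBulge* against at least 4275 in the other libraries.

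*Septin14*, a septin of the SEPT6 subgroup that is known mainly from testis, was the gene called higher in *10xBulge*. It had 378 in N1 and 959 in N2, 1082 in N3 and 1212 in N4, and 1613 in N5 and 1509 in N6 (normalized counts). The 3 genotypes did not overlap, and the *10xBulge* pair lay closest together. Wild type averaged 668 ± 411 and *10xBulge* 1561 ± 73.4 (SD, n = 2), 2.59-fold higher (log2 fold change 1.37, 95% confidence interval 0.28 to 2.47, limma adjusted p = 0.0673). The part of cell makeup in this difference was not tested. N1 and N2 were 1.34 apart in log2. Without N1 the log2 fold change was 0.70 (limma adjusted p = 0.321), and without N2 it was 2.04 (0.0211). The call was also lost without N3 (0.130), N4 (0.132) or N5 (0.131), with only the genotypes compared in the fit (0.127) and without the mean-variance trend (0.105). The log2 ratio of *Septin14* to *Septin12* within a library was -4.47 in N1, between -2.79 and -2.70 in N2, N3 and N4, and -1.59 in N5 and -0.53 in N6.

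*Septin7*, whose subgroup has no other member, had 1359 in N1 and 2352 in N2, 2412 and 2110 in *10xPerf*, and 1508 in N5 and 3004 in N6 (normalized counts). The genotypes overlapped. The log2 fold change in *10xBulge* against wild type was 0.25 (95% confidence interval -0.81 to 1.31, limma adjusted p = 0.735). The main *Septin2* gene (ENSMUSG00000116048) stood at 3267 in N1 and 8176 in N2, against 7716 and 7878 for *10xPerf* and 6303 and 8588 for *10xBulge*. N1 was low and the other 5 libraries were alike. The second *Septin2* gene (ENSMUSG00000026276) stood at 742 and 769 for wild type, 1236 and 702 for *10xPerf*, and 777 and 1443 for *10xBulge*. On GRCm38 the 2 genes overlap on the forward strand of chromosome 1 (93478993 to 93509733 and 93478964 to 93510260), so how reads were divided between them is uncertain. Their sum was 4009 and 8945 for wild type, 8952 and 8581 for *10xPerf*, and 7080 and 10030 for *10xBulge*, with a log2 fold change in *10xBulge* of 0.49 (95% confidence interval -0.58 to 1.57, limma adjusted p = 0.482). The main *Septin2* gene, *Septin7*, *Septin14* and *Septin6* were each at their lowest in N1. The GC content of their transcripts was 41.3% for the main *Septin2* gene, 35.7% for *Septin7*, 47.3% for *Septin14* and 46.6% for *Septin6*, and the part of GC content in the N1 values was not tested gene by gene.

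*Septin9*, a widely expressed member of the SEPT3 subgroup, stood at 4502 and 4144 normalized counts for wild type, 3323 and 4326 for *10xPerf*, and 13008 in N5 and 4572 in N6. N5 stood alone, and N6 was just above the other 4 libraries. The log2 fold change in *10xBulge* against wild type was 0.84 (95% confidence interval -0.33 to 2.01, limma adjusted p = 0.268), and it was 0.082 without N5. It passed the threshold without N6 (1.59, limma adjusted p = 0.0265), after scaling to library totals (1.22, limma adjusted p = 0.0612) and with the GC trend removed (1.38, limma adjusted p = 0.0139). *Septin6*, an X-linked gene that is also expressed outside the germ line, stood at 1401 and 2468 for wild type, 1452 and 2535 for *10xPerf*, and 4692 in N5 and 2181 in N6. N5 was again the highest and N6 lay within the range of the other libraries. Its log2 fold change was 0.78 (95% confidence interval -0.39 to 1.96, limma adjusted p = 0.301), 0.23 without N5. It passed the threshold without N6 (1.33, limma adjusted p = 0.0931), after scaling to library totals (1.17, limma adjusted p = 0.0834) and with the GC trend removed (1.43, limma adjusted p = 0.0296). Removing the GC trend in this form also moved the median of all genes from -0.026 to 0.58. With library means kept, *Septin9* had 0.78 (limma adjusted p = 0.142) and *Septin6* 0.83 (limma adjusted p = 0.202), and neither was called. N5 is also the library with the highest Sertoli and Leydig marker sums (283600 and 319236 normalized counts, against 135842 and 150962 in N6), and their part in the N5 values was not tested.

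In all, 2 of the 9 tested entries were called lower and 1 higher in *10xBulge* against wild type (33.3%), while 34.4% of all tested genes were called, 23.0% lower and 11.4% higher. This split over all genes depends on the scaling, with 5466 lower and 2712 higher as reported, 4745 and 5788 after scaling to equal library totals, and 4725 and 8712 with the GC trend of each library removed. The share is near that of all genes and is not a result about these genes as a group. The median log2 fold change was 0.49 over the 9 entries, which count *Septin2* as 2 genes, and -0.026 over all genes tested. The 0.49 is the value of the second *Septin2* gene, which was not called. The libraries of the 2 genotypes did not overlap for 5 of the 9 entries (2 below, 3 above), against 62.1% of all genes tested. Exact permutation of 2 libraries against 2 cannot give a p below 0.33, so the calls rest on a spread estimated across genes. Each p-value sets a difference against that estimated spread between libraries. With 1 line per knock-in genotype, differences between lines cannot be told apart from differences due to the sites.

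Counted per kilobase, the makeup of the subgroups differed between *10xBulge* and the other libraries. *Septin4* made up 44.4% and 35.2% of the summed SEPT2 subgroup level in wild type, 43.01% and 36.5% in *10xPerf*, and 2.13% in N5 and 1.44% in N6. The share of *Septin2* (both genes) was 26.4% to 47.5% in wild type and *10xPerf*, and 63.5% in N5 and 84.0% in N6. The summed SEPT2 subgroup level was 4535 to 6315 per kilobase in the first 4 libraries, and 3360 in N5 and 3584 in N6. In the SEPT3 subgroup, *Septin12* made up 70.4% to 74.4% in wild type and *10xPerf*, and 41.2% in N5 and 47.2% in N6. *Septin9* made up 16.7% to 23.6% in wild type and *10xPerf*, and 58.4% in N5 and 52.4% in N6, so that it exceeded *Septin12* in both *10xBulge* libraries and in no other library. In the SEPT6 subgroup, *Septin10* had the highest share in every library, 52.5% to 60.2% in wild type and *10xPerf*, and 33.0% in N5 and 39.7% in N6. The share of *Septin14* was 13.7% in N1, 20.9% to 25.5% in N2, N3 and N4, and 25.3% in N5 and 33.1% in N6. These shares are fixed by the levels above and were not tested separately.

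**Figure D2:**
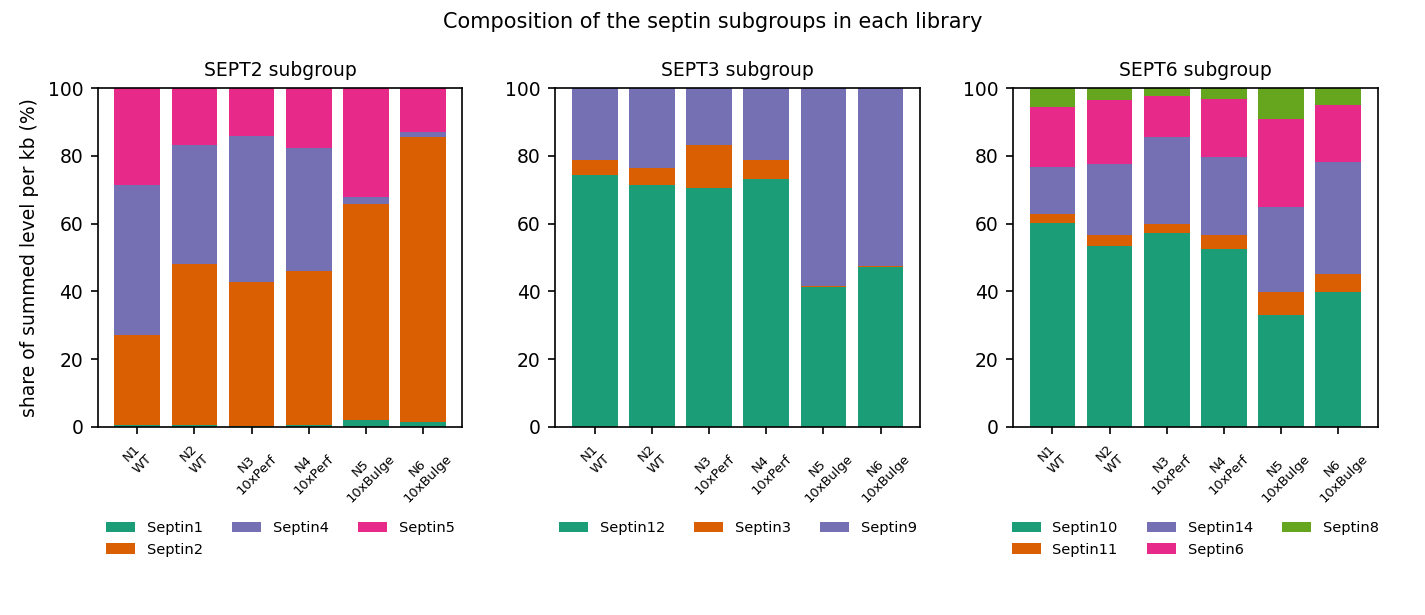
Shares (%) of each septin gene in the summed level per kilobase of its subgroup, for the 6 libraries. Each bar is 1 library and each colour 1 gene. The *Septin4* segment is 2.13% and 1.44% in N5 and N6, and *Septin9* is the largest segment of the SEPT3 subgroup in these libraries.

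Neither member genes nor their partners differed detectably between *10xPerf* and wild type. Of the 9 entries, 0 were called in limma at an adjusted p under 0.1 and 0 had an unadjusted p under 0.05, with 0.959% of all tested genes called (0.492% lower and 0.467% higher). The smallest unadjusted p, 0.0873, was that of *Septin14* (log2 fold change 0.93, 95% confidence interval -0.17 to 2.02, limma adjusted p = 0.853), and leaving out N1 or N2 moved its log2 fold change to 0.26 or 1.60. *Septin4* had a log2 fold change of 0.25 (95% confidence interval -0.63 to 1.12), *Septin12* of 0.033 (-1.02 to 1.08) and *Slc26a8* of 0.084 (-0.89 to 1.05). The median over the 9 entries was 0.25, against 0.018 over all genes.

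Against *10xPerf*, *10xBulge* had 2 of the 9 entries called lower and 0 higher, with 37.0% of all tested genes called (24.1% lower and 12.9% higher). *Septin4* was 38.8-fold lower (log2 fold change -5.28, 95% confidence interval -6.16 to -4.40, limma adjusted p = 1.32e-05). *Septin12* was 2.34-fold lower (log2 fold change -1.23, 95% confidence interval -2.28 to -0.18, limma adjusted p = 0.0788), and its call was lost without N6 (-0.65, limma adjusted p = 0.305) and without any 1 of N1 to N4 (limma adjusted p from 0.105 to 0.285). With the GC trend removed its log2 fold change was -0.54 (limma adjusted p = 0.234). This form also moved the median of all genes from -0.067 to 0.58. *Septin14* was not called here (0.45, 95% confidence interval -0.65 to 1.54, limma adjusted p = 0.531), although its *10xBulge* libraries were above both *10xPerf* libraries. The libraries of these genotypes did not overlap for 66.1% of all genes tested. *Slc26a8* had -0.56 (95% confidence interval -1.53 to 0.41, limma adjusted p = 0.366) and *Septin9* 1.02 (-0.14 to 2.19, limma adjusted p = 0.172). This comparison and that against wild type share the *10xBulge* libraries. The median over the 9 entries was -0.084, against -0.067 over all genes.

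**Figure D3:**
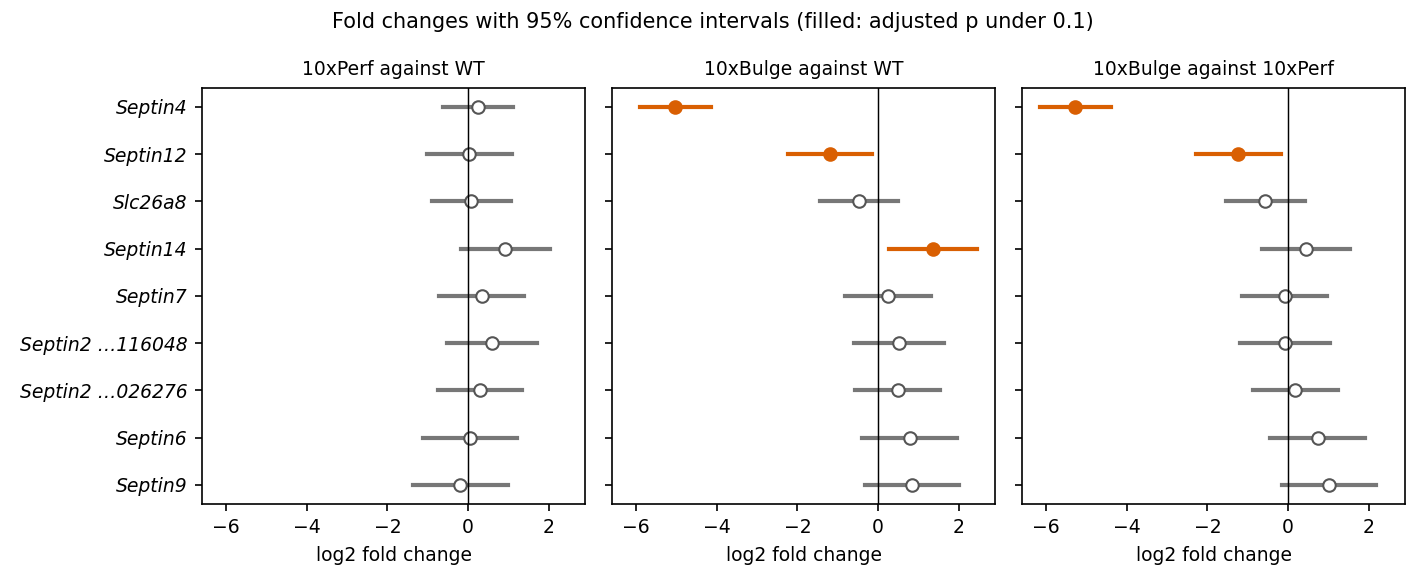
Log2 fold changes (points) with 95% confidence intervals (lines) from limma for the 3 comparisons, 2 libraries per genotype. Filled orange points have an adjusted p under 0.1, and *Septin4* at -5.03 and -5.28 lies apart from the other genes.

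The 6 other septin genes were described in the same way. *Septin3*, known mainly from neurons and a member of the SEPT3 subgroup, stood at 969 and 897 normalized counts for wild type, 2641 and 1197 for *10xPerf*, and 90.1 and 36.3 for *10xBulge*. It was 16.0-fold lower in *10xBulge* than in wild type (log2 fold change -4.00, 95% confidence interval -5.25 to -2.75, limma adjusted p = 0.00057), and the call was kept in each alternative run. *Septin11*, of the SEPT6 subgroup, had 222 and 463, 356 and 655, and 1300 and 751 normalized counts, and rose 3.07-fold against wild type (log2 fold change 1.62, limma adjusted p = 0.0512). This call was lost without N1 (1.09, limma adjusted p = 0.291) and without N5 (1.22, limma adjusted p = 0.166). *Septin8* (424 and 468, 284 and 464, 1645 and 646) and *Septin1* (38.98 and 43.8, 20.0 and 36.3, 107 and 80.6) were above both other genotypes in *10xBulge*. Against wild type they had limma adjusted p-values of 0.118 and 0.139, and against *10xPerf* both were called higher (limma adjusted p = 0.0577 and 0.0353). *Septin10* (2553 and 3785, 3740 and 4232, 3251 and 2792) and *Septin5* (4781 and 3516, 3298 and 3720, 3978 and 1720) were not called. In all, 1 of 6 was called lower and 1 higher against wild type (33.3%, near the 34.4% of all tested genes). Against *10xPerf* 1 was called lower and 2 higher (50%, against 37.0% of all tested genes), and 0 in *10xPerf* against wild type.

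Of 17 genes for proteins that bind or position septins, share the annulus or partner SLC26A8, 3 were called lower and 2 higher in *10xBulge* against wild type, 29.4% against 34.4% of all tested genes. *Cby3*, which encodes a protein that keeps the annulus in place, stood at 986 and 678 normalized counts for wild type, 779 and 882 for *10xPerf*, and 4.67 and 4.93 for *10xBulge*, close to the 3-read level in those libraries. Its log2 fold change was -7.14 (95% confidence interval -8.11 to -6.17, limma adjusted p = 6.54e-06), and with values this low it moved with the pseudocount, to -5.81 at 10 and -7.38 at 0.1. *Cibar1*, whose product acts with CBY3, had 719 and 1616, 1998 and 1295, and 807 and 1001, and was not called (-0.26, limma adjusted p = 0.731). *Spag4*, which encodes a nuclear envelope protein of spermatids, had 16101 and 8040, 8014 and 10356, and 210 and 164 normalized counts (-5.93, limma adjusted p = 1.63e-05). *Dnajb13*, a gene for a protein of the axoneme, had 9359 and 7672, 8242 and 9433, and 2059 and 911 (-2.63, limma adjusted p = 0.00269). *Spag4* and *Dnajb13* kept their call in each alternative run. *Cby3* kept its call wherever it was tested, but it was not tested with a minimum of 10 in every library.

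*Cdc42*, a small GTPase gene whose product directs septin assembly, was higher in *10xBulge*. Wild-type libraries held 3281 and 5372 normalized counts, *10xPerf* libraries 3450 and 6633, and *10xBulge* libraries 13760 and 14093 (log2 fold change 1.73, limma adjusted p = 0.0233). *Cdc42ep5*, one of the genes for CDC42 effectors that bind septins, had 1297 and 861, 637 and 915, and 2706 and 1890 (1.10, limma adjusted p = 0.0902), and its call was lost without any 1 of N1 to N5 (limma adjusted p from 0.122 to 0.289). The *Cdc42* call was lost without N1 (limma adjusted p = 0.154). The part of cell makeup in the higher values of *Cdc42* and *Cdc42ep5* was not tested. Of the genes for other CDC42 effectors, none was called in *10xBulge* against wild type. *Cdc42ep3* had -0.78 and *Cdc42ep4* -0.44 (limma adjusted p = 0.171 and 0.445), and *Cdc42ep1* had 0.61 and *Cdc42ep2* 0.27 (limma adjusted p = 0.310 and 0.697). *Cftr*, the gene for the chloride channel that SLC26A8 binds, had 635 and 913, 1221 and 907, and 219 and 581. It was lower than *10xPerf* (-1.56, limma adjusted p = 0.0522) and had a limma adjusted p of 0.155 against wild type. Against *10xPerf*, 4 of the 17 were called lower and 4 higher (47.1%, against 37.0% of all tested genes), and in *10xPerf* against wild type 0 of 17 were called. Those lower than *10xPerf* were *Cby3*, *Spag4*, *Dnajb13* and *Cftr*, and those higher were *Cdc42*, *Cdc42ep1*, *Cdc42ep5* and *Ndc1*.

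**Figure D4:**
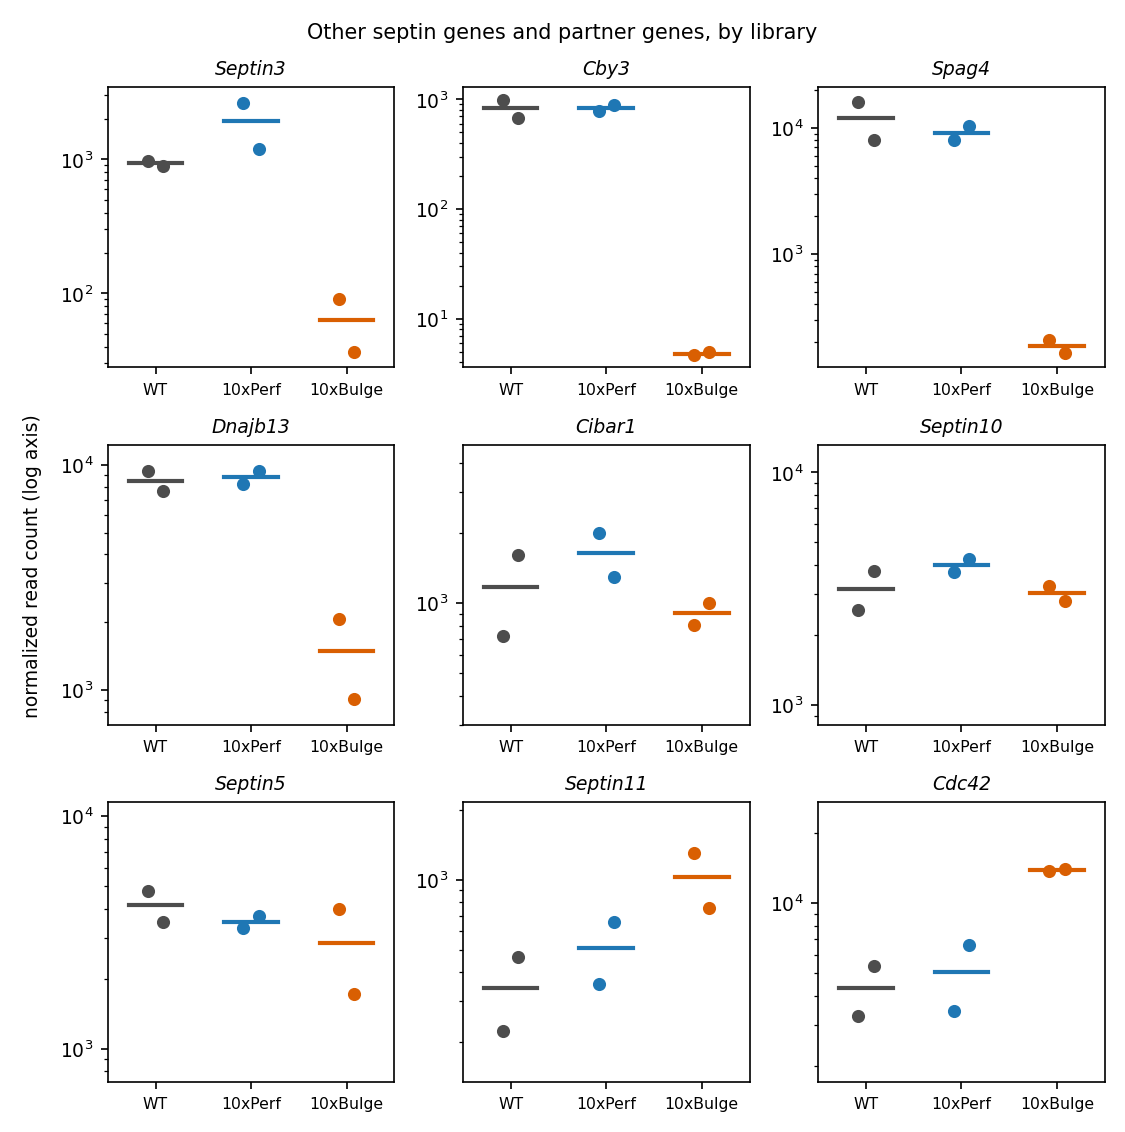
Normalized read counts (log axis) of 9 other septin and partner genes in each library. Points are libraries and lines are means of 2 libraries. *Septin3*, *Cby3*, *Spag4* and *Dnajb13* are lower in both *10xBulge* libraries than in the other 4, and *Cdc42* is higher.

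The genes with the most similar pattern over the 6 libraries were found among 13791 candidates by the root mean square difference of centred log2 values. For *Septin4* they were *Sncaip* (0.093) and *Tex26* (0.12), and 22 candidates lay within 0.25. *Tex26* stood at 1131 and 974 normalized counts for wild type, 1310 and 1199 for *10xPerf*, and 42.4 and 26.5 for *10xBulge*. For *Septin12* they were *Csnk2b* (0.034) and *Tmsb10* (0.085), with 162 candidates within 0.25. *Csnk2b* had 31442 and 23557, 27950 and 28205, and 18040 and 8186 normalized counts, with N6 the lowest as for *Septin12*. For *Slc26a8* they were *Usp42* (0.065) and *Larp1* (0.074), with 328 within 0.25, and for *Septin14* *Swap70* (0.061) and *Cdc40* (0.084). *Septin9* was nearest to *Mars1* (0.051) and *Thbs1* (0.064), which were also highest in N5. *Septin7* was nearest to *Ska2* (0.054) and *Slc4a7* (0.065), and *Septin6* to *Gm21988* (0.096) and *Cobll1* (0.098). The main *Septin2* gene was nearest to *Anln* (0.062), the gene for the septin-binding protein anillin, and to *Rab8b* (0.067), and the second *Septin2* gene to *Malt1* (0.085) and *Neil2* (0.11). A small difference describes 6 values and says nothing of shared function.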

How the data were processed

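Total RNA-seq libraries from adult testes of wild-type, *10xPerf* and *10xBulge* mice were used, 2 per genotype. Immunoprecipitation libraries are not analysed here. The authors quantified reads with salmon and its GC correction on GRCm39 and deposited normalized counts from DESeq2, a signal that is not whole reads (19.4% of genes above 0 were whole multiples of 1 step within 0.01). The deposited log2 fold changes and the deposited p-values of the authors were not used.

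The filter asked for 10 or more normalized counts in 2 or more libraries. Values as log2(value + 1), which understates changes of low genes, were fitted in limma (3.58.1, R 4.3.3) with 1 term per genotype, all 6 libraries, a mean-variance trend and Benjamini-Hochberg adjustment over all 23782 genes (threshold 0.1). Transcript length and GC content came from GENCODE on GRCm38, promoters from RefSeq on GRCm38.p6.

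Members and lists were chosen with earlier results of these data known. Named genes were the members, other septins, partners called in a comparison against wild type, and the 2 genes nearest in pattern. *Cibar1*, *Cftr*, *Ndc1* and the CDC42 effector genes other than *Cdc42ep5* belong to the planned partner list. Only their naming in the text was added after their values were seen. The alternatives are given in the closing section. Python 3.11.15 and matplotlib 3.10.9 were used for tables and figures.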

Additional observations from a re-analysis of the deposited data

How the results depend on the processing

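In *10xBulge* against wild type, 3 of the 9 entries were called, but 1 with only the 2 genotypes in the fit, 1 without the mean-variance trend, 1 at a threshold of 0.05 and 7 after removal of the GC trend (1 lower, *Septin4*, and 6 higher, with *Septin12* no longer called), and between 1 and 4 with a library left out. Against *10xPerf*, 2 were called, but 1 without a filter, 1 with only the 2 genotypes in the fit, 1 without the trend, 1 at a threshold of 0.05 and 7 after removal of the GC trend (1 lower and 6 higher), and 1 to 3 with a library left out. Removing the GC trend as planned also sets each library's mean to a common value. It moved the median of all genes from -0.026 to 0.58 against wild type and called 4725 lower and 8712 higher of 23614 genes, so its added calls go with calls over all genes. A second form that keeps the means, added after the calls of the first were seen, gave 3 and 2. Counts of other septin and partner genes called against wild type were 7 as reported, 13 after scaling to equal library totals, 14 with the GC trend removed, 11 with means kept, and 4 to 11 with a library left out. Against *10xPerf* they were 11, and 4 to 12 with a library left out. Scaling to library totals moved the median log2 fold change over all genes (*10xBulge* against wild type) from -0.026 to 0.36, so single values shift with it. In *10xPerf* against wild type 0 were called under each alternative.

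Signs turned as follows, none of them called except where said. With the GC trend removed, *Slc26a8* had 0.15 in *10xBulge* against wild type and 0.13 against *10xPerf*. Against *10xPerf*, the main *Septin2* gene had 0.83 (limma adjusted p = 0.0817, called) and *Septin7* 1.10 (0.0303, called), and with means kept 0.18 and 0.45. After scaling to totals they had 0.17 and 0.16, and after scaling to upper quartiles 0.0077 and 0.0070. *Septin10* against wild type had 0.34 after scaling to totals and 0.60 with the GC trend removed. In *10xPerf* against wild type, *Septin12* had -0.033 with upper quartiles and -0.030 with the GC trend removed, *Septin6* -0.021, -0.16 and, with means kept, -0.11, *Septin9* 0.024 with means kept, and the second *Septin2* gene -0.028 with the GC trend removed. With a library left out, values in *10xBulge* against wild type ran from -0.15 to 1.17 for the main *Septin2* gene, -0.25 to 0.75 for *Septin7* and -0.33 to 0.24 for *Septin10*. Against *10xPerf* they ran from -0.31 to 0.14 for the main *Septin2* gene, -0.58 to 0.41 for *Septin7* and -0.26 to 0.63 for the second *Septin2* gene. In *10xPerf* against wild type they ran from -0.069 to 1.25 for the main *Septin2* gene, -0.10 to 0.71 for the second, -0.14 to 0.20 for *Septin12*, -0.38 to 0.0021 for *Septin9*, -0.36 to 0.45 for *Septin6* and -0.060 to 0.73 for *Septin7*. Apart from what the GC forms' construction shows, the cause was not tested. Where a library was left out, the lone library of its genotype is assumed to vary like the others. No paired analysis was possible because the genotypes share no replicate numbers.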
